A study of Homo sapiens with 24 samples.

Results

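The DNA replication machinery was represented by 54 genes, from origin recognition to nucleotide supply, chosen by name from the 61860 human gene rows of the count tables. They comprised 6 subunits of the origin recognition complex, 9 genes of helicase loading, 8 of helicase activation, 10 of primase and the polymerases, 6 of the sliding clamp and its loader, 7 of single-strand binding and Okazaki fragment processing, 4 of fork protection and 4 of nucleotide supply. Read counts per gene were available from 24 RNA-seq libraries of OE33, an esophageal adenocarcinoma cell line. In the first experiment, male BALB/c-nu mice, which lack mature T cells, entered at 4 weeks of age and were fed for 8 weeks on either normal chow (ND) or food rich in fat (HFD). OE33 cells were then injected under the skin, and the xenograft tumors were taken 21 days later with the diets continued. In the second, cultured cells carried an HA-tagged TRIM15 plasmid (HA-TRIM15) or the empty vector (EV) for 48 h. In the remaining experiments, cells received a short hairpin RNA against YY2 (shYY2) or against FOXRED1 (shFOXRED1), each with its own shControl cells, for 72 h. Every group held 3 libraries, and all of them carried the OE33 background. Which of the study's hairpins was sequenced is not stated in the sources used here, so an effect of 1 hairpin sequence cannot be told apart from that of its target. The labels do not say that the cultures were independent, so p-values measure only the spread between these libraries, which may be technical.

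Library totals ranged from 14299807 to 45994561 counts. The targeted genes moved as labelled: TRIM15 lay at 5.41 to 11.4 CPM (counts scaled to a common library size) with HA-TRIM15 and at 0 with EV, YY2 fell by 1.82 (log2) with shYY2, and FOXRED1 fell by 0.78 with shFOXRED1. TRIM15 was also higher in HFD tumors (0.614 to 0.655 CPM, against 0 to 0.0375 in ND tumors), and FOXRED1 fell by 0.24 with HA-TRIM15 and by 0.89 with shYY2. Of 11 columnar epithelial markers, 10 passed the count filter in tumors, led by KRT19 at a mean of 7325 CPM in HFD and 7075 CPM in ND tumors, and CDX1 was at 0. The epithelial sum was 13781 to 13979 CPM in HFD and 12942 to 13247 CPM in ND tumors. Among 24 markers of fibroblasts, endothelium and leukocytes, 4 (COL1A1, ENG, ITGAM, CD14) passed the count filter in tumors, and the defining PTPRC, TYROBP, PECAM1, DCN, COL1A2 and COL3A1 were at or near 0. The summed marker level in HFD against ND tumors was 23.9 to 27.3 against 30.6 to 33.8 CPM for fibroblasts, 60.2 to 62.1 against 49.4 to 56.3 for endothelium and 14.8 to 14.9 against 15.9 to 17.5 for leukocytes. These rows are human genes and the host is a mouse, so the sums are not a measure of host cells. Cultures without a host had fibroblast, endothelial and leukocyte sums of 12.3 to 13.6, 51.6 to 56.0 and 8.09 to 8.44 CPM with EV. In the shControl cells of the FOXRED1 experiment the sums were 24.3 to 25.5, 78.4 to 92.6 and 24.5 to 26.8 CPM. The part of host cells in the results was not tested.

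Replication begins when the origin recognition complex, CDC6 and CDT1 load the ring-shaped MCM2 to MCM7 helicase onto DNA in G1 phase, a step that geminin (GMNN) blocks by binding CDT1. In S phase the kinase CDC7 with DBF4, together with CDC45, the GINS complex and MCM10, turns the loaded ring into an active helicase. Primase and DNA polymerase alpha then make the primers. Polymerases delta and epsilon copy the strands, held in place by the PCNA clamp that RFC loads. The genes of this machinery are known as targets of E2F factors, which switch on transcription at the entry to S phase, and high levels of MCM proteins and PCNA are used as marks of proliferating cells in tumors.

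The promoters of the members were searched for short elements, which their choice did not use. RefSeq promoter windows, 250 bases before to 50 bases after the start site (GRCh38.p14), were available for 47 members. An E2F-type element, any of TTTCCCGC, TTTCGCGC, TTTGCCGC and TTTGGCGC on either strand, with overlapping matches counted separately, was present in 19 of them (40.4%), beside 4.44% of the windows of 15842 protein-coding genes. Helicase loading genes held it most often, in 6 of 7 windows. A YY-type element, GCCATNTT on either strand, was present in 3 members (6.38%, beside 7.92%), and the CCAAT box in 26 (55.3%, beside 36.4%). These matches describe letters in a window and are not evidence of binding. The following windows run from 190 bases before to 20 bases after the start site, 5′ to 3′ on the strand of the gene. They show 5 members with the E2F-type element in capitals, and MCM10 and RFC1 without any of its searched forms, though both hold the CCAAT box. Only these exact forms were searched. The near form tttggcggg was not, and it stands unmarked in the windows of CDC6, CDT1 and MCM10. On the opposite strand, as cccgccaaa, it also stands unmarked in that of RFC1. CDC6, CLSPN and MCM10 had the largest falls of their steps with shYY2, CDT1 and RFC1 were not called there, and MCM3 and MCM6 had the largest changes of helicase loading with HFD and with shFOXRED1.
CDC6, chr17:40287689-40287898, plus strand: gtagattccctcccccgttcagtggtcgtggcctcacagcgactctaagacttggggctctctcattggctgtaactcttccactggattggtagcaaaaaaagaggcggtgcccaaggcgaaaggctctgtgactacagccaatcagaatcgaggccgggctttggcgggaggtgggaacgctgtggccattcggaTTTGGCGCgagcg
MCM3, chr6:52284723-52284932, minus strand: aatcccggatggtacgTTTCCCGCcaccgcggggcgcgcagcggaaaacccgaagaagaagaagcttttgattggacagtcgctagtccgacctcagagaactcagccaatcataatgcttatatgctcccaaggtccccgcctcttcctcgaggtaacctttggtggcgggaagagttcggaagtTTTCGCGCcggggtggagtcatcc
MCM6, chr2:135876424-135876633, minus strand: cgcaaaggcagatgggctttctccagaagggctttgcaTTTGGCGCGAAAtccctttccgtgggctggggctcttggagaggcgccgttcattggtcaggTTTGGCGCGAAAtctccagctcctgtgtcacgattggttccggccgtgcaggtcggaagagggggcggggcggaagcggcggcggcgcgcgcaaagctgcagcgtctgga
CLSPN, chr1:35769959-35770168, minus strand: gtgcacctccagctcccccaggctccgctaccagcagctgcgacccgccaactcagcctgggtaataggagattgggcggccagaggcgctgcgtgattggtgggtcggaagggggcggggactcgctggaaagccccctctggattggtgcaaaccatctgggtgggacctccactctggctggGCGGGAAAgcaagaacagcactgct
CDT1, chr16:88803599-88803808, plus strand: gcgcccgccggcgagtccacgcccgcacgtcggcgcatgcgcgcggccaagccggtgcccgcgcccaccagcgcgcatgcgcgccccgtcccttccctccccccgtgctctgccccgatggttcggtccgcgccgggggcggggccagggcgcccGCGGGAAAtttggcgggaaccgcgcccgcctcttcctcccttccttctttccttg
MCM10, chr10:13161368-13161577, plus strand: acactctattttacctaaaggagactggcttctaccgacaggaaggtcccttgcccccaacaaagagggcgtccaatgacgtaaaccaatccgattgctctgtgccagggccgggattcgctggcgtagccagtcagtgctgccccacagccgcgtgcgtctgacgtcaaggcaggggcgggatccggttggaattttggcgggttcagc
RFC1, chr4:39366343-39366552, minus strand: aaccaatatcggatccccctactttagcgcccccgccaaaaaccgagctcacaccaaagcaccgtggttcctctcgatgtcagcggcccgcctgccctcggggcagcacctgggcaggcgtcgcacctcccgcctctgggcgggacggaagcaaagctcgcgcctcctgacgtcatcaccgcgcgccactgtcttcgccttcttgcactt
In MCM6 the element stood 4 times, as 2 pairs that overlap on opposite strands, and in MCM3 it stood 2 times. In CDC6, MCM3 and CLSPN a match lay within 10 bases of the start site.

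Levels per length differed widely between members. On the RPKM scale (CPM per kilobase of exon), PCNA was highest in every control group, at 157 ± 1.27 in ND tumors, 282 ± 2.19 with EV, 261 ± 7.78 in the shControl cells of the YY2 experiment and 111 ± 6.42 in those of the FOXRED1 experiment (mean ± SD, n = 3). MCM7 was next in every control group, at 105 ± 3.49, 175 ± 1.18, 156 ± 4.48 and 73.1 ± 2.88 RPKM in the same order. These ranges do not overlap within any control group. POLA2, a subunit of the polymerase that makes the primers, was lowest of the members tested, at 1.44 to 2.38 RPKM on average. RNASEH2A, the catalytic subunit of RNase H2, had 0 to 23 counts per library and failed the filter in every experiment, so 53 members were tested. By annotation, 30.8% of its exon length is shared with THSD8 on the same strand. Such overlap with another gene was also large for TYMS (39.1%, ENOSF1, opposite strand), POLA2 (35.1%), MCM2 (22.7%), GINS4 (21.2%), TIPIN (21%) and RRM2 (20.2%), and reads there can be split or lost.

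**Figure D1:**
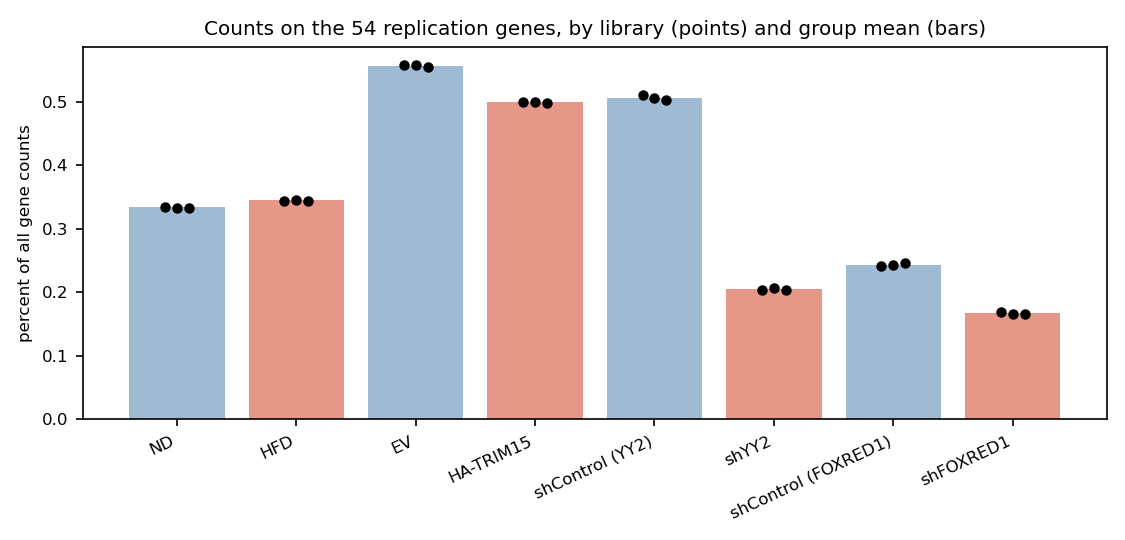
Percent of all gene counts that fell on the 54 replication genes (y axis) in each of the 8 groups (x axis), with points for the 3 libraries and bars for their mean. The share was highest in EV cells (0.555 to 0.558%) and lowest with shFOXRED1 (0.166 to 0.168%).

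The share of counts on the 54 genes was 0.344 to 0.345% in HFD and 0.333 to 0.334% in ND tumors. It was 0.498 to 0.5% with HA-TRIM15 and 0.555 to 0.558% with EV. It was 0.203 to 0.206% with shYY2 and 0.503 to 0.510% in its shControl cells. It was 0.166 to 0.168% with shFOXRED1 and 0.241 to 0.246% in its shControl cells. The treated and control ranges of share did not overlap in any of the 4 experiments. The shControl cells of the FOXRED1 experiment lay below those of the YY2 experiment although both were held for 72 h, and experiment and culture cannot be told apart there. In bulk libraries, fewer cycling cells and less RNA per cycling cell cannot be told apart either. Proliferation was not measured in these libraries. In separate growth assays of EAC cells, the paper reports more proliferation after knockdown of YY2 or FOXRED1 and after TRIM15 overexpression. For the diets, it reports larger tumors in HFD than in ND mice. It also lists DNA replication among terms enriched in genes that its TRIM15, YY2 and FOXRED1 RNA-seq results share. How the RNA levels relate to those assays or to tumor size was not tested.

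The first comparison asked how the replication genes differed between tumors of HFD and ND mice. Genes of helicase loading and activation and of nucleotide supply were mostly higher in HFD tumors, led by GINS1, MCM3 and RFC3, while subunits of the single-strand binding protein RPA were lower. Of 53 members tested, 31 were higher, where 25.6% of all 17012 genes tested were, and 5 were lower, where 23.9% of all genes were (edgeR quasi-likelihood test, adjusted p under 0.05). The median log2 fold change of members was 0.17, beside -0.012 over all genes. The ranges of the 2 groups did not overlap for 38 members, 32 above and 6 below, where 56.2% of all genes did not overlap. Most changes were small: 13 members were higher by at least 1.2-fold and 0 by at least 2-fold, where 15.9% and 1.22% of all genes were, and 0 were lower by at least 1.2-fold, where 15.8% of all genes were. The split between higher and lower depended on the scaling. With library totals only and no scaling factor, the median of all genes moved by -0.11, and 14 members were higher and 12 lower, beside 16.5% and 37.7% of all genes. The 14 were CDC6, MCM3, MCM4, MCM10, GINS1, GINS4, DBF4, CDC7, RFC3, RFC4, CLSPN, RRM1, TYMS and TK1, all among the 31, and they were also higher in all 12 alternatives run apart from the fold thresholds. Fold changes are relative to the bulk of genes (TMM scaling).

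The origin recognition complex, which marks origins, changed least, with 2 of 6 subunits higher. ORC4 lay at 44.4, 41.4 and 39.6 CPM in HFD and at 37.7, 35.3 and 35.4 CPM in ND tumors, 1.16-fold higher (log2 0.21 ± 0.052 SE, adjusted p = 0.00324), a call lost with library totals only. ORC1 was the other subunit that was higher (log2 0.19 ± 0.065), a call lost in 6 of 12 alternatives. The remaining 4 subunits were not called, with log2 values from -0.11 to 0.046.

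Of the 9 genes of helicase loading, 7 were higher and 0 lower. MCM3, a subunit of the helicase ring, lay at 131, 126 and 136 CPM in HFD and at 72.3, 75.7 and 70.2 CPM in ND tumors. Every HFD library was above every ND library, and the 1.80-fold difference (log2 0.85 ± 0.041, adjusted p = 7.82e-11) was the largest of the step. The other ring subunits moved less: MCM4 by 0.25, MCM5 and MCM6 by 0.21 each and MCM7 by 0.096 (log2), all called higher, while MCM2, at 0.049, was not called. MCM5, MCM6 and MCM7 lost their call with library totals only, and MCM7 also in 6 other alternatives. CDC6, the ATPase that recruits the ring, was 1.21-fold higher (64.6, 63.0 and 62.7 against 51.5, 51.4 and 54.3 CPM). The licensing factor CDT1 did not pass the test (39.1, 38.6 and 38.7 against 35.6, 40.7 and 38.3 CPM), whereas its inhibitor GMNN was higher (log2 0.17 ± 0.053, adjusted p = 0.0141), a call lost in 3 of 12 alternatives.

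**Figure D2:**
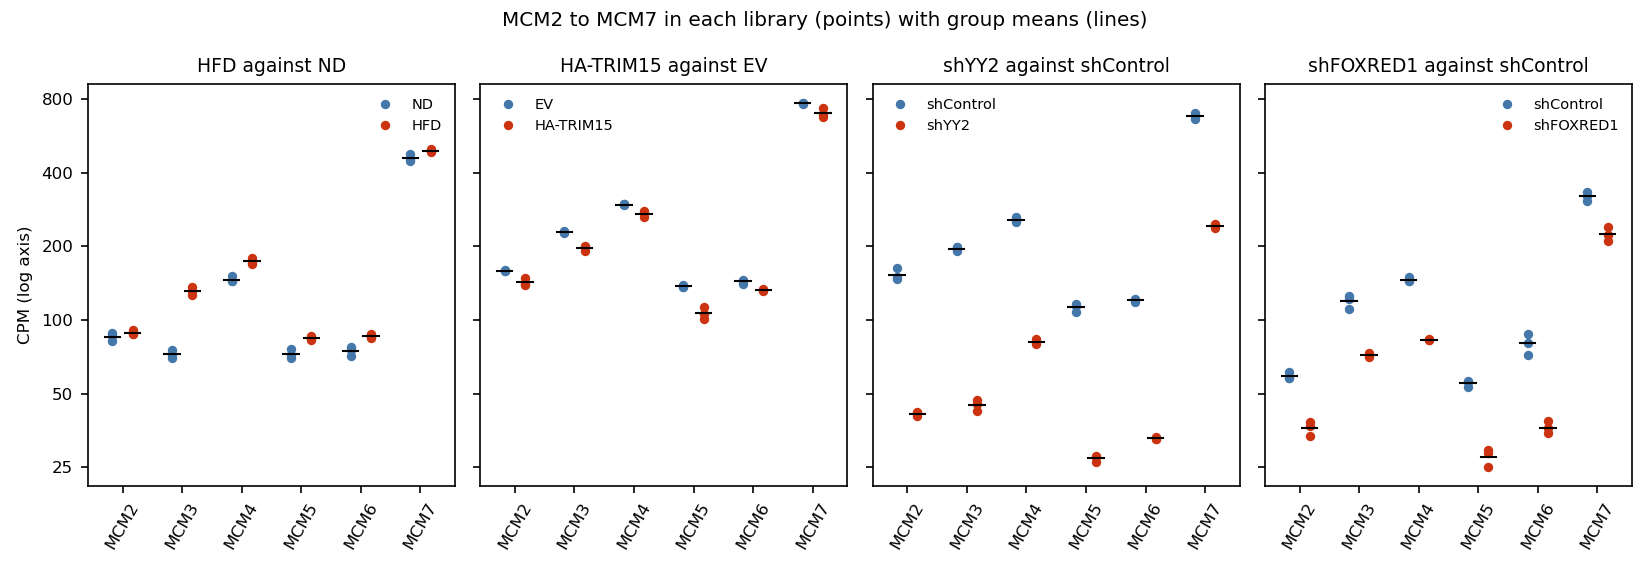
CPM of MCM2 to MCM7 (y axis, log scale) in each library (points) with group means (black lines), 1 panel per experiment. MCM3 in HFD tumors (126 to 136 CPM) stands apart from ND tumors (70.2 to 75.7 CPM), the other subunits differ less there, and all 6 lie below their controls with shYY2 and with shFOXRED1.

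Helicase activation showed the largest median of any step (log2 0.37), with 7 of 8 genes higher. GINS1, a subunit of the GINS complex that joins MCM2 to MCM7 in the working helicase, lay at 48.6, 47.6 and 50.7 CPM in HFD and at 25.1, 24.4 and 27.8 CPM in ND tumors, 1.92-fold higher (log2 0.94 ± 0.053, adjusted p = 5.56e-10). This was the largest change of all members. The kinase CDC7 and its activator DBF4 rose together, by log2 0.44 ± 0.065 and 0.55 ± 0.038. GINS4 and MCM10 rose by 0.38 and 0.36, CDC45 and GINS3 by 0.17 and 0.16 (calls lost in 5 and 6 of 12 alternatives), and GINS2 (0.043) was not called.

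Among primase and polymerases, 4 were higher and 1 lower. POLE2, an accessory subunit of polymerase epsilon, was 1.16-fold higher (11.6, 12.2 and 11.4 against 10.6, 9.56 and 10.2 CPM), a call lost in 5 of 12 alternatives. POLE, the catalytic subunit of the same enzyme, went the other way, at 77.1, 75.0 and 73.0 against 83.4, 88.6 and 77.3 CPM (log2 -0.16 ± 0.047, adjusted p = 0.0115). POLD1 and POLD2 of polymerase delta rose by 0.20 and 0.18, and POLA1 by 0.17.

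PCNA rose 1.11-fold, from 233, 229 and 229.9 CPM to 248, 258 and 259 CPM (adjusted p = 0.00195). RFC3, a small subunit of the clamp loader, rose 1.62-fold, from 43.3, 43.7 and 46.9 CPM to 71.5, 71.8 and 73.1 CPM (log2 0.70 ± 0.042, adjusted p = 1.20e-09). RFC4 rose by 0.28, RFC5 fell by 0.15 (adjusted p = 0.0201), and RFC1 and RFC2 were not called. The loader subunits therefore differed in direction, and RFC5 lost its call in 4 of 12 alternatives.

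The step of single-strand binding and Okazaki fragment processing had a negative median (log2 -0.10). RPA1, the large subunit of the protein that coats single-stranded DNA, fell from 104, 100.3 and 105 CPM to 91.5, 88.2 and 86.9 CPM (log2 -0.22 ± 0.038, adjusted p = 1.64e-04). RPA2 fell by 0.21 (adjusted p = 0.00849), and RPA3, at -0.13, was not called. Only FEN1, the flap nuclease, was higher in this step (log2 0.11 ± 0.038), a call lost in 4 of 12 alternatives, with log2 -0.0023 under library totals.

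In fork protection, 3 of 4 genes were higher. CLSPN (claspin), which links the fork to the checkpoint kinase CHK1, lay at 16.3, 17.3 and 18.8 against 13.8, 12.6 and 14.5 CPM (log2 0.38 ± 0.077, adjusted p = 5.94e-04). TIMELESS, which travels with TIPIN at the fork, fell slightly (log2 -0.13 ± 0.042), whereas TIPIN rose (0.30 ± 0.078). The call of TIMELESS was lost in 5 of 12 alternatives. All 4 genes of nucleotide supply were higher. TYMS (thymidylate synthase) rose from 9.33, 9.92 and 10.5 CPM to 12.8, 14.3 and 12.5 CPM (log2 0.41 ± 0.080, adjusted p = 4.72e-04). RRM1 rose by 0.40, TK1 by 0.25 and RRM2 by 0.18, the last not with library totals. RRM1 and RRM2 form ribonucleotide reductase, which makes deoxyribonucleotides.

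The 5 members that were lower in HFD tumors were POLE, RFC5, RPA1, RPA2 and TIMELESS. Leaving out HFD replicate 3 or ND replicate 3 brought this count to 3. RPA1 and RPA2 kept their call in all 12 alternatives, and all 5 were also lower with library totals only.

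Lists of genes outside the 54 are set beside the shares over all genes tested with HFD, 25.6% higher and 23.9% lower. Of 24 other replication factors, 13 were higher and 3 lower, from SUPT16H, a histone chaperone subunit (log2 0.62 ± 0.036), to CHTF8 (-0.79 ± 0.32). Of 13 other nucleotide enzymes, 6 were higher and 3 lower, with DCK at 0.60 and TK2 at -0.50. Of 11 genes of chromatin assembly at the fork, 3 were higher and 3 lower, near the shares over all genes, with CDCA7 at 0.37 and ASF1B at -0.33. Of 25 G1/S regulators, 11 were higher and 7 lower. Both extremes of that list were inhibitors of cyclin-dependent kinases, CDKN1A at 0.64 and CDKN1B at -0.55. Of 26 mitosis genes, 16 were higher and 3 lower, with PLK1 at 0.55 and FOXM1 at -0.35.

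**Figure D3:**
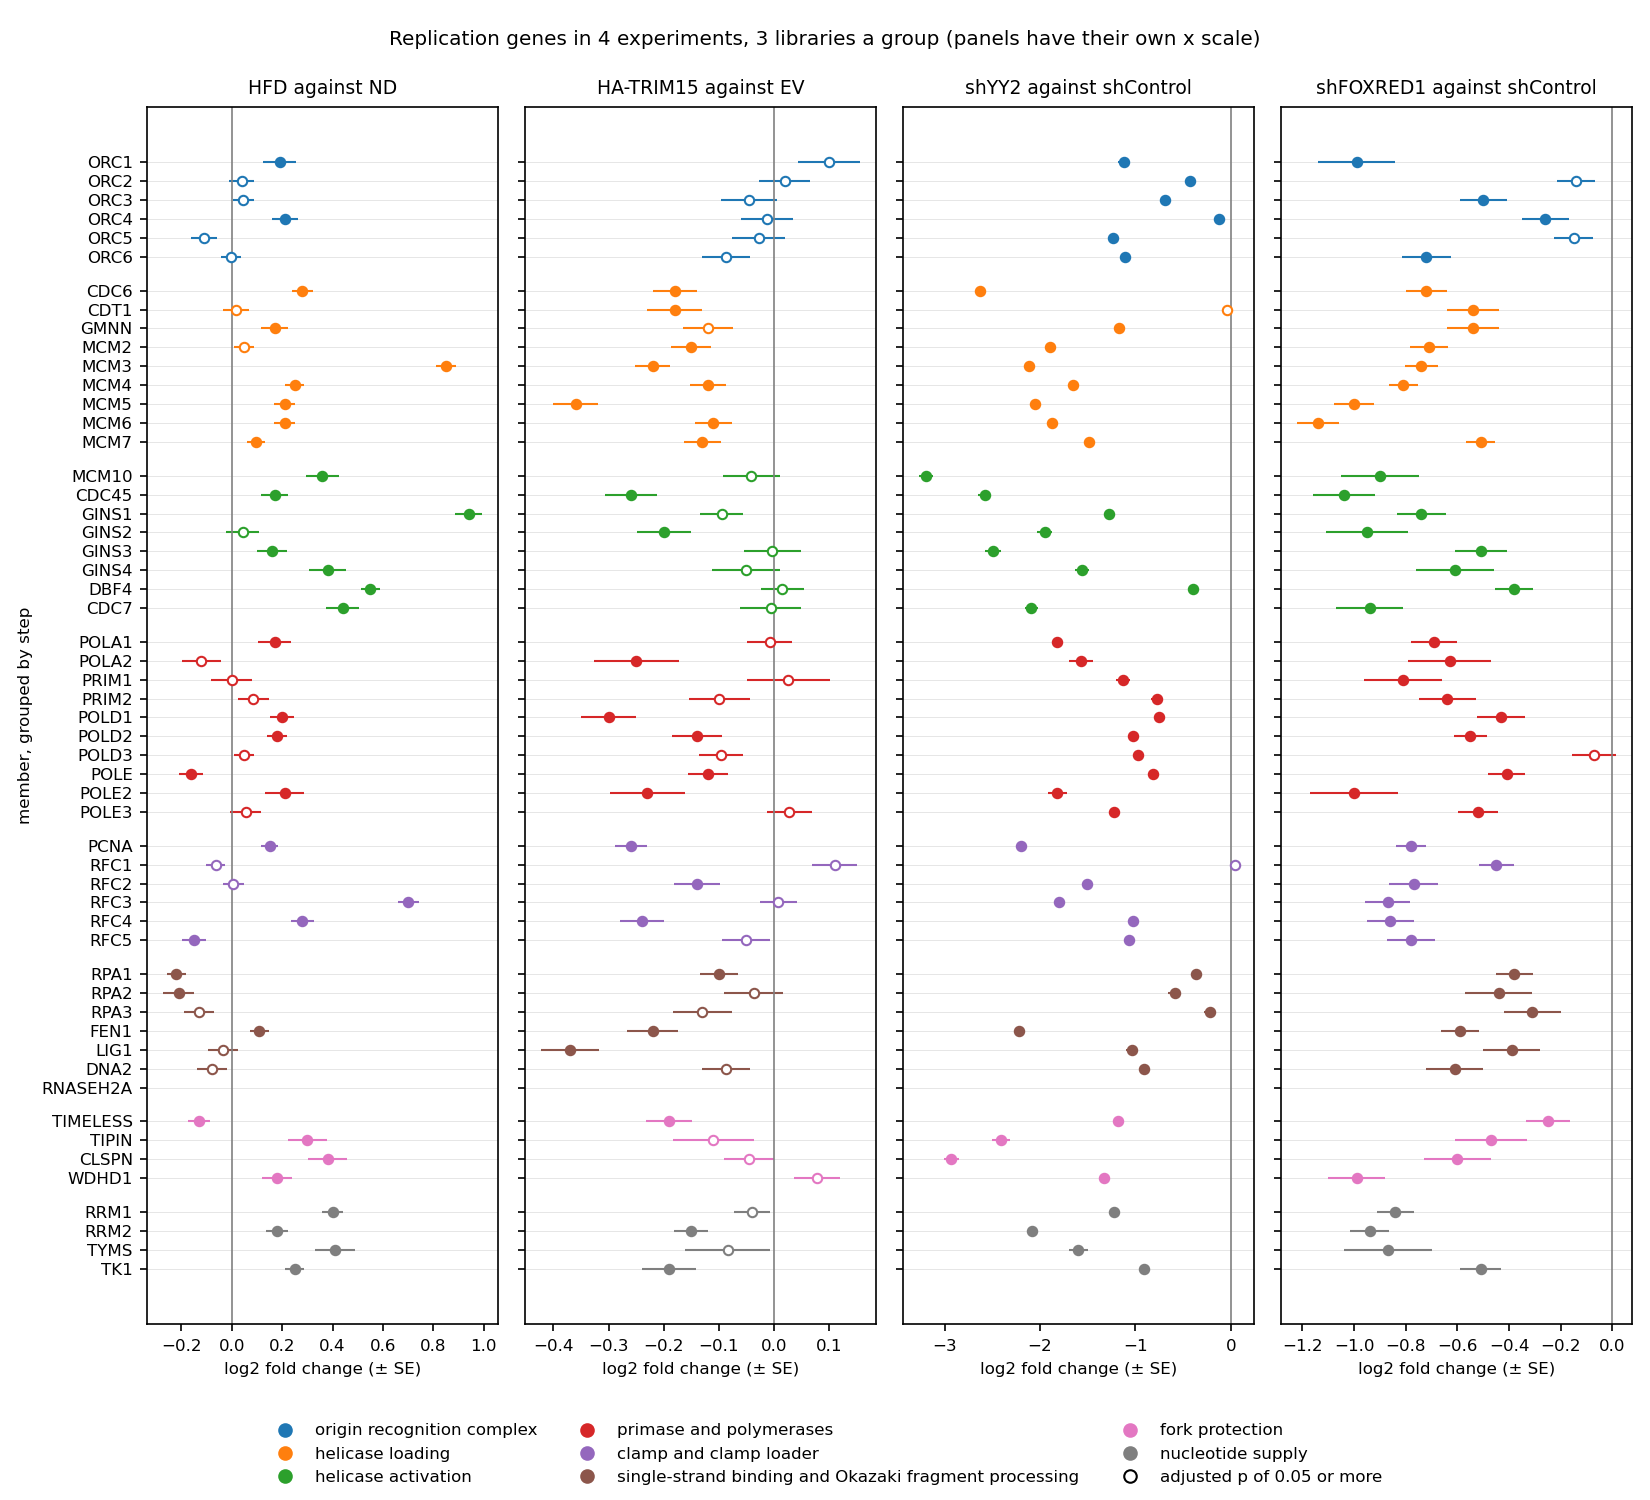
Log2 fold change (x axis, ± SE) of the 53 members tested (y axis, grouped and coloured by step) in the 4 experiments, with filled points for an adjusted p under 0.05. Most points lie right of 0 in HFD tumors and left of 0 in the other 3 panels, whose scales differ. RNASEH2A has no point because it failed the count filter.

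The second comparison asked whether HA-TRIM15 changed the same genes in culture. None of the 53 members tested was higher, where 12.5% of all 15745 genes tested were, and 24 were lower, where 9.53% of all genes were. At an unadjusted p under 0.05, 1 member (RFC1) was higher, and by DESeq2 0 were. Their median log2 fold change was -0.10, beside -0.0065 over all genes, so falls were small. The groups did not overlap for 28 members, 27 below and 1 above, where 37.7% of all genes did not overlap. Of the 24, 3 fell by at least 1.2-fold and 0 by at least 2-fold, where 2.99% and 0.229% of all genes did. Leaving out HA-TRIM15 replicate 2 brought the count to 14 and leaving out EV replicate 1 to 15, and 13 members kept their call in all 12 alternatives: CDC6, MCM2, MCM3, MCM5, CDC45, GINS2, POLD1, PCNA, RFC4, FEN1, LIG1, TIMELESS and RRM2.

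Helicase loading held 8 of the 24. MCM5 fell most, from 137, 139 and 137 CPM with EV to 113, 101 and 106 CPM with HA-TRIM15 (log2 -0.36 ± 0.041, adjusted p = 2.14e-05). MCM3 fell by 0.22, MCM2 by 0.15, MCM7 by 0.13, MCM4 by 0.12 and MCM6 by 0.11, and the calls of MCM4, MCM6 and MCM7 were lost without EV replicate 1. CDC6 and CDT1 fell by 0.18 each, the latter lost in 4 of 12 alternatives, while GMNN (-0.12 ± 0.046, adjusted p = 0.0745) missed the threshold. No subunit of the origin recognition complex was called, with log2 values from -0.087 to 0.10.

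CDC45 fell from 53.5, 52.8 and 56.4 CPM to 44.7, 44.1 and 47.5 CPM (log2 -0.26 ± 0.047, adjusted p = 0.00137), and GINS2 fell by 0.20. The other 6 activation genes were not called. Of the polymerases, POLD1, the catalytic subunit of polymerase delta, fell from 51.5, 54.4 and 54.1 CPM to 45.8, 40.5 and 43.8 CPM (log2 -0.30 ± 0.050, adjusted p = 8.25e-04). POLA2, POLE2, POLD2 and POLE fell by 0.25, 0.23, 0.14 and 0.12, each lost in at least 4 of 12 alternatives. PCNA fell from 418, 414 and 412 CPM to 343, 349 and 345 CPM (log2 -0.26 ± 0.029, adjusted p = 1.64e-05). RFC4 fell by 0.24 and RFC2 by 0.14, whereas RFC1 lay at 97.9, 106 and 104 against 92.1, 97.5 and 94.0 CPM, above EV in every library (adjusted p = 0.0562, and 0.0396 with the replicate block).

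LIG1, the ligase that joins Okazaki fragments, showed the largest change of all members, from 62.0, 61.3 and 57.1 CPM to 49.6, 43.8 and 45.3 CPM, 1.29-fold lower (log2 -0.37 ± 0.052, adjusted p = 1.67e-04). FEN1, which acts just before it, fell by 0.22. RPA1 fell by 0.10 with an adjusted p of 0.05, a call that 8 of 12 alternatives lost. TIMELESS fell from 100.3, 95.3 and 92.5 CPM to 84.0, 87.0 and 81.1 CPM (log2 -0.19 ± 0.042, adjusted p = 0.00491). TK1, the salvage kinase of thymidine, fell from 131, 129 and 129 CPM to 124, 106 and 108 CPM, and its call was lost without HA-TRIM15 replicate 2. RRM2 fell by 0.15, from 221, 224 and 225 CPM to 201, 199 and 204 CPM, while RRM1 and TYMS were not called.

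In the lists outside the 54, 6 of 24 other replication factors were lower and 1 higher (CHTF18 at -0.36, RIF1 at 0.16). Over all genes tested with HA-TRIM15, 9.53% were lower and 12.5% higher. Of 13 other nucleotide enzymes, 8 were lower and 0 higher, with TK2 at -0.28. Of 11 chromatin assembly genes, 4 were lower and 0 higher, led by UHRF1 at -0.30. Of 25 G1/S regulators, 6 were lower and 4 higher, with E2F2 at -0.34 and CDKN1B at 0.20. Of 26 mitosis genes, 13 were lower and 0 higher, with SPC24 at -0.35.

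The effects of HFD and of HA-TRIM15 were compared directly in 1 fit of all 24 libraries. They differed for 29 of 53 members, where 28.4% of 17980 genes differed. The HA-TRIM15 effect was the more negative for 28 members, most of all for MCM3 (log2 difference -1.07 ± 0.057, adjusted p = 4.63e-15) and GINS1 (-1.04 ± 0.077). RFC1 was the exception, with a difference of 0.17 ± 0.062 (adjusted p = 0.0353). The diet experiment used tumors and the other cultured cells, so diet, host and culture cannot be told apart in this contrast.

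The third comparison asked what the loss of YY2, a zinc finger factor related to YY1, did to the same genes. Nearly the whole machinery fell, and helicase loading, helicase activation and fork protection fell most. Of 53 members tested, 51 were lower, where 38.1% of all 16006 genes tested were, and 0 were higher, where 36.8% of all genes were (0 also at an unadjusted p under 0.05 and by DESeq2). Their median log2 fold change was -1.23, a 2.35-fold decrease, beside -0.0081 over all genes. The groups did not overlap for the 51 members, all below, where 76.3% of all genes did not overlap. A fall of at least 2-fold was reached by 38 members, where 8.71% of all genes reached it. Of the 51, 50 kept their call in all 12 alternatives.

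In the origin recognition complex all 6 subunits fell. ORC5 fell most, from 79.6, 75.3 and 81.6 CPM to 32.6, 34.2 and 33.8 CPM (log2 -1.23 ± 0.045, adjusted p = 7.50e-13). ORC1 and ORC6 fell by 1.12 and 1.11, and ORC4 fell least, by 0.12 (adjusted p = 0.0439), a call lost in 8 of 12 alternatives.

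In helicase loading, CDC6 fell 6.17-fold, from 104, 105 and 107 CPM to 16.2, 16.4 and 18.6 CPM (log2 -2.63 ± 0.049, adjusted p = 6.40e-16). All 6 ring subunits fell by between 2.82-fold (MCM7) and 4.36-fold (MCM3). MCM3 lay at 42.6, 47.0 and 45.4 CPM against 198, 192 and 198 CPM, and MCM5 at 27.6, 27.8 and 26.4 CPM against 116, 114 and 108 CPM. MCM2, MCM6 and MCM4 fell by 1.89, 1.87 and 1.65 (log2). CDT1 was the exception of this step, at 42.6, 42.9 and 39.6 against 42.2, 44.9 and 41.6 CPM (log2 -0.040 ± 0.049, adjusted p = 0.478). Its inhibitor GMNN fell from 39.9, 38.2 and 38.4 CPM to 16.9, 18.1 and 16.7 CPM (log2 -1.17 ± 0.056, adjusted p = 2.07e-11).

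Helicase activation had the largest median fall (log2 -2.02). MCM10, which activates the assembled helicase, fell 9.15-fold, from 46.1, 46.8 and 47.2 CPM to 4.93, 4.56 and 5.73 CPM (log2 -3.19 ± 0.074, adjusted p = 5.35e-15), the largest change of all members. CDC45, GINS3 and CDC7 fell by 2.58, 2.49 and 2.09, and GINS2, GINS4 and GINS1 by 1.95, 1.56 and 1.28. DBF4 fell least, by 0.40 ± 0.033, and so less than its kinase CDC7.

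All 10 genes of primase and the polymerases fell, by 0.75 (POLD1) to 1.82 (POLE2 and POLA1). POLE2 lay at 5.54, 4.98 and 4.76 CPM against 19.8, 16.2 and 18.0 CPM (adjusted p = 1.69e-10), and POLE, its catalytic partner, fell by 0.82. PCNA fell 4.60-fold, from 397, 382 and 374 CPM to 84.8, 86.3 and 79.9 CPM (log2 -2.20 ± 0.036, adjusted p = 1.49e-16). The small clamp loader subunits RFC2 to RFC5 fell by 1.51, 1.80, 1.03 and 1.07, whereas the large subunit RFC1 was not called, at 103, 100.5 and 97.3 against 99.2, 93.4 and 99.5 CPM (log2 0.040 ± 0.036, adjusted p = 0.321).

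FEN1 fell 4.67-fold, from 139, 134 and 131 CPM to 28.3, 29.4 and 28.8 CPM (log2 -2.22 ± 0.040, adjusted p = 3.42e-16). The RPA subunits fell much less, RPA1 by 0.36, RPA2 by 0.59 and RPA3 by 0.22. LIG1 and DNA2, a nuclease and helicase, fell by 1.04 and 0.91. In fork protection, CLSPN fell 7.64-fold, from 34.9, 36.0 and 37.1 CPM to 5.05, 4.14 and 4.92 CPM (log2 -2.93 ± 0.080, adjusted p = 2.92e-14). TIPIN fell by 2.41 and its partner TIMELESS by 1.18, and WDHD1, which couples polymerase alpha to the helicase, fell by 1.33. In nucleotide supply, RRM2 fell 4.24-fold, from 224, 223 and 230.2 CPM to 53.3, 55.3 and 51.5 CPM (log2 -2.08 ± 0.035, adjusted p = 1.57e-16). TYMS, RRM1 and TK1 fell by 1.60, 1.22 and 0.91.

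The other lists fell too, with exceptions, where 38.1% of all genes tested were lower and 36.8% higher. Of 24 other replication factors, 20 were lower and 2 higher, from DSCC1 at -1.98 to POLD4, the small subunit of polymerase delta, at 0.99. Of 13 other nucleotide enzymes, 11 were lower and 1 higher. The exception was RRM2B (0.44 ± 0.046), the p53-induced relative of RRM2, and NME1, whose reads may be shared with its close relative NME2, fell most, by 2.74. All 11 chromatin assembly genes were lower, led by UHRF1 at -2.48. Of 25 G1/S regulators, 20 were lower and 5 higher, with CDC25A, the phosphatase that activates cyclin-dependent kinases, at -2.62 and the inhibitor CDKN1B at 1.49. Of 26 mitosis genes, 20 were lower and 2 higher, with SPC25 at -1.66 and KIF20A at 0.44, and their median was -0.44, beside -1.23 for the 53 replication genes.

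The shYY2 and HA-TRIM15 effects differed for 49 of 53 members, where 57.4% of 17980 genes differed, and the shYY2 effect was the more negative in all 49. The largest differences were those of MCM10 (log2 -3.12 ± 0.11), CLSPN (-2.85 ± 0.11) and GINS3 (-2.45 ± 0.10). CDT1 (0.18 ± 0.085, adjusted p = 0.0662) and RFC1 (-0.037 ± 0.063, adjusted p = 0.641) were among the 4 that were not called.

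**Figure D4:**
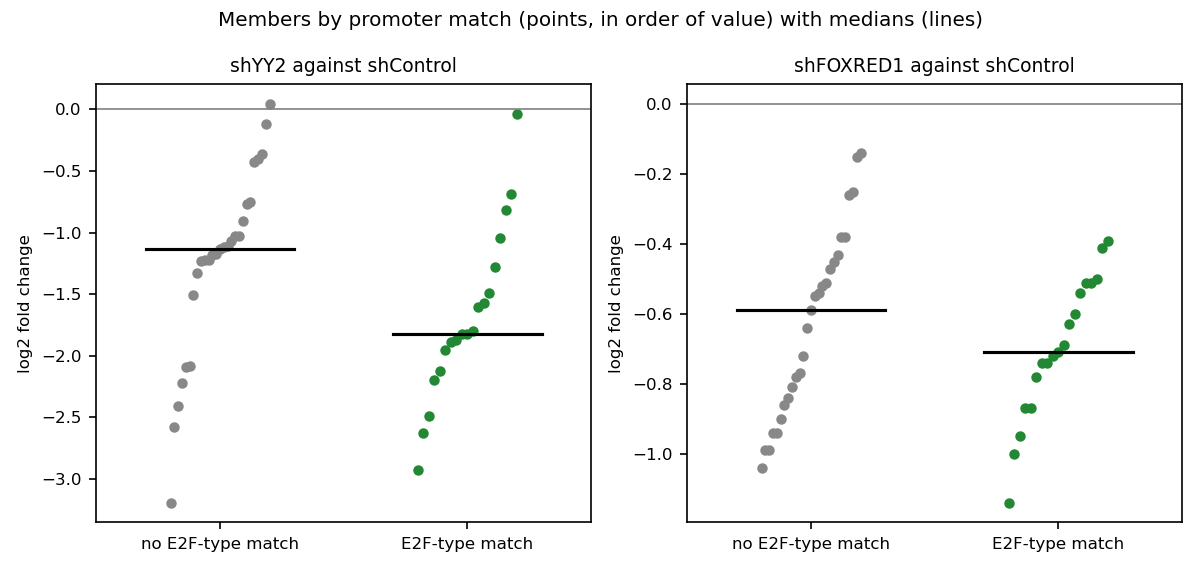
Log2 fold change (y axis) of the 46 tested members with a promoter window, without (left) or with (right) an E2F-type match, after shYY2 and after shFOXRED1, with lines for the medians. With shYY2 the medians were -1.13 (27 members) and -1.82 (19 members), and the points overlap over most of their range.

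With shYY2, log2 fold changes of the 19 members with an E2F-type element in their window ran from -2.93 to -0.040 around a median of -1.82. Those of the 27 without it ran from -3.19 to 0.040 around -1.13. The lowest value without the element was that of MCM10, and the highest values with and without it were those of CDT1 and RFC1, both shown among the windows. The windows of MCM10 and RFC1 both hold the near form tttggcggg, that of RFC1 on the opposite strand. This split therefore rests on the exact forms searched. With shFOXRED1 the medians were -0.71 and -0.59. The 3 members with a YY-type element had a median of -1.22 with shYY2, beside -1.28 for the 43 without. These medians are descriptions of overlapping sets of values, with no test.

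The last comparison asked the same of FOXRED1, a mitochondrial protein needed to assemble respiratory complex I. All 53 members tested had negative log2 fold changes. Of these, 50 were lower, where 19.7% of all 15730 genes tested were, and 0 were higher, where 16.8% of all genes were (0 also at an unadjusted p under 0.05 and by DESeq2). The median was -0.63, a 1.55-fold decrease, beside 0.012 over all genes. The groups did not overlap for 50 members, all below, where 46.7% of all genes did not overlap. The falls were more even than with shYY2, from -1.14 to -0.071, and 2 members, MCM6 and CDC45, reached a 2-fold fall, where 1.27% of all genes did. Of the 50, 44 kept their call in all 12 alternatives.

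In the origin recognition complex, ORC1 fell most, from 12.0, 11.4 and 11.7 CPM to 4.94, 7.14 and 5.61 CPM (log2 -0.99 ± 0.15, adjusted p = 4.39e-05). ORC6 and ORC3 fell by 0.72 and 0.50, ORC4 by 0.26, and ORC2 and ORC5 were not called. With the replicate number as a block, ORC5 was called lower (log2 -0.15 ± 0.059, adjusted p = 0.0468). All 9 genes of helicase loading fell. MCM6 fell 2.20-fold, from 72.1, 80.7 and 88.0 CPM to 36.2, 38.5 and 34.4 CPM (log2 -1.14 ± 0.080, adjusted p = 8.88e-09). MCM5, MCM4, MCM3, MCM2 and MCM7 fell by 1.0, 0.81, 0.74, 0.71 and 0.51. CDT1 and GMNN both fell here, CDT1 from 25.7, 26.3 and 21.9 CPM to 17.5, 17.3 and 16.2 CPM and GMNN from 20.1, 18.9 and 19.3 CPM to 13.3, 14.4 and 12.2 CPM, both by 0.54 (adjusted p = 4.28e-04 and 5.48e-04).

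All 8 activation genes fell. CDC45 fell from 14.4, 17.7 and 16.3 CPM to 7.43, 8.44 and 7.59 CPM (log2 -1.04 ± 0.12, adjusted p = 4.26e-06), and DBF4 again fell least, by 0.38. Of the polymerase genes 9 of 10 fell. POLE2 fell from 8.42, 6.37 and 8.09 CPM to 3.55, 3.89 and 4.04 CPM (log2 -1.0 ± 0.17, adjusted p = 1.55e-04), and POLD3 was not called (-0.071 ± 0.085). PCNA fell from 155, 174 and 161 CPM to 93.7, 93.6 and 97.4 CPM (log2 -0.78 ± 0.059, adjusted p = 2.20e-08). All 5 loader subunits fell, RFC3 most, from 44.7, 47.2 and 51.9 CPM to 24.2, 25.3 and 29.3 CPM (log2 -0.87 ± 0.088), and RFC1 by 0.45.

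DNA2 fell by 0.61, from 19.8, 20.4 and 21.7 CPM to 12.0, 13.9 and 14.9 CPM (adjusted p = 2.78e-04), FEN1 by 0.59, and RPA1, RPA2 and RPA3 by 0.38, 0.44 and 0.31. The calls of ORC4 and RPA3 were each lost in 5 of 12 alternatives. WDHD1 fell from 22.6, 25 and 28.7 CPM to 12.6, 11.6 and 14.2 CPM (log2 -0.99 ± 0.11, adjusted p = 3.00e-06). CLSPN, TIPIN and TIMELESS fell by 0.60, 0.47 and 0.25, and the call of TIMELESS was lost in 4 of 12 alternatives. RRM2 fell from 50.1, 54.9 and 57.2 CPM to 28.3, 28.9 and 27.4 CPM (log2 -0.94 ± 0.076, adjusted p = 5.12e-08), with TYMS, RRM1 and TK1 at -0.87, -0.84 and -0.51.

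Mitosis genes fell with them, 25 of 26 lower and 0 higher, with CENPE at -1.04 and a list median of -0.70. Over all genes tested with shFOXRED1, 19.7% were lower and 16.8% higher. Of 24 other replication factors, 17 were lower and 1 higher, with DTL at -1.07 and POLD4 at 0.31. Of 13 other nucleotide enzymes, 9 were lower and 1 higher, with NME1 at -0.78 and CMPK1 at 0.47. Of 11 chromatin assembly genes, 10 were lower and 0 higher, with UHRF1 at -1.08. Of 25 G1/S regulators, 15 were lower and 1 higher, with E2F7 at -1.02 and CDKN1B at 0.27.

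The shFOXRED1 and shYY2 effects differed for 43 of 53 members, where 55.5% of 17980 genes differed. The shFOXRED1 effect was the less negative for 41 of them, most of all for CLSPN (log2 difference 2.29 ± 0.14), MCM10 (2.25 ± 0.15) and GINS3 (1.93 ± 0.11). It was the more negative for CDT1 (-0.54 ± 0.095, adjusted p = 1.62e-05) and RFC1 (-0.53 ± 0.066, adjusted p = 5.00e-08), the members that shYY2 left uncalled. Each effect was taken against its own shControl libraries, whose levels of these genes differed as given above.

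Levels of partner genes did not always move together. For 6 pairs or complexes, chosen after their values were seen, the log2 ratio of RPKM was computed in each library, which removes library scaling. With 24 such ratios, 3 libraries a group and an exact permutation test (two-sided), no p can go below 0.1, and the lowest adjusted p was 0.160. In HFD tumors MCM3 stood at 0.46 ± 0.051 (mean ± SD, n = 3) relative to the mean of the other ring subunits, against -0.23 ± 0.050 in ND tumors. In all cultured control groups MCM3 was above the others, at 0.50 to 0.76 on average. GINS1 relative to the other GINS subunits stood at 1.56 ± 0.033 in HFD and 0.83 ± 0.10 in ND tumors, with no overlap. The same ratio was also higher with shYY2, at 2.33 ± 0.14 against 1.59 ± 0.090. With shYY2 the ratio of CDT1 to GMNN rose from -0.29 ± 0.080 to 0.85 ± 0.052, a 2.19-fold shift toward CDT1, and that of RFC1 to the small loader subunits from -0.92 ± 0.062 to 0.48 ± 0.043, a 2.63-fold shift. In the other 3 experiments the ranges of CDT1 to GMNN overlapped between groups. Those of RFC1 to the small subunits did not: the ratio differed by 0.22 with HA-TRIM15, 0.38 with shFOXRED1 and -0.27 with HFD. RRM2 fell relative to RRM1 with shYY2, from -0.18 ± 0.043 to -1.04 ± 0.035, and POLE2 relative to POLE from -0.028 ± 0.16 to -1.02 ± 0.11. POLE2 to POLE also differed without overlap in the other experiments, by -0.58 with shFOXRED1, -0.12 with HA-TRIM15 and 0.36 with HFD.

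**Figure D5:**
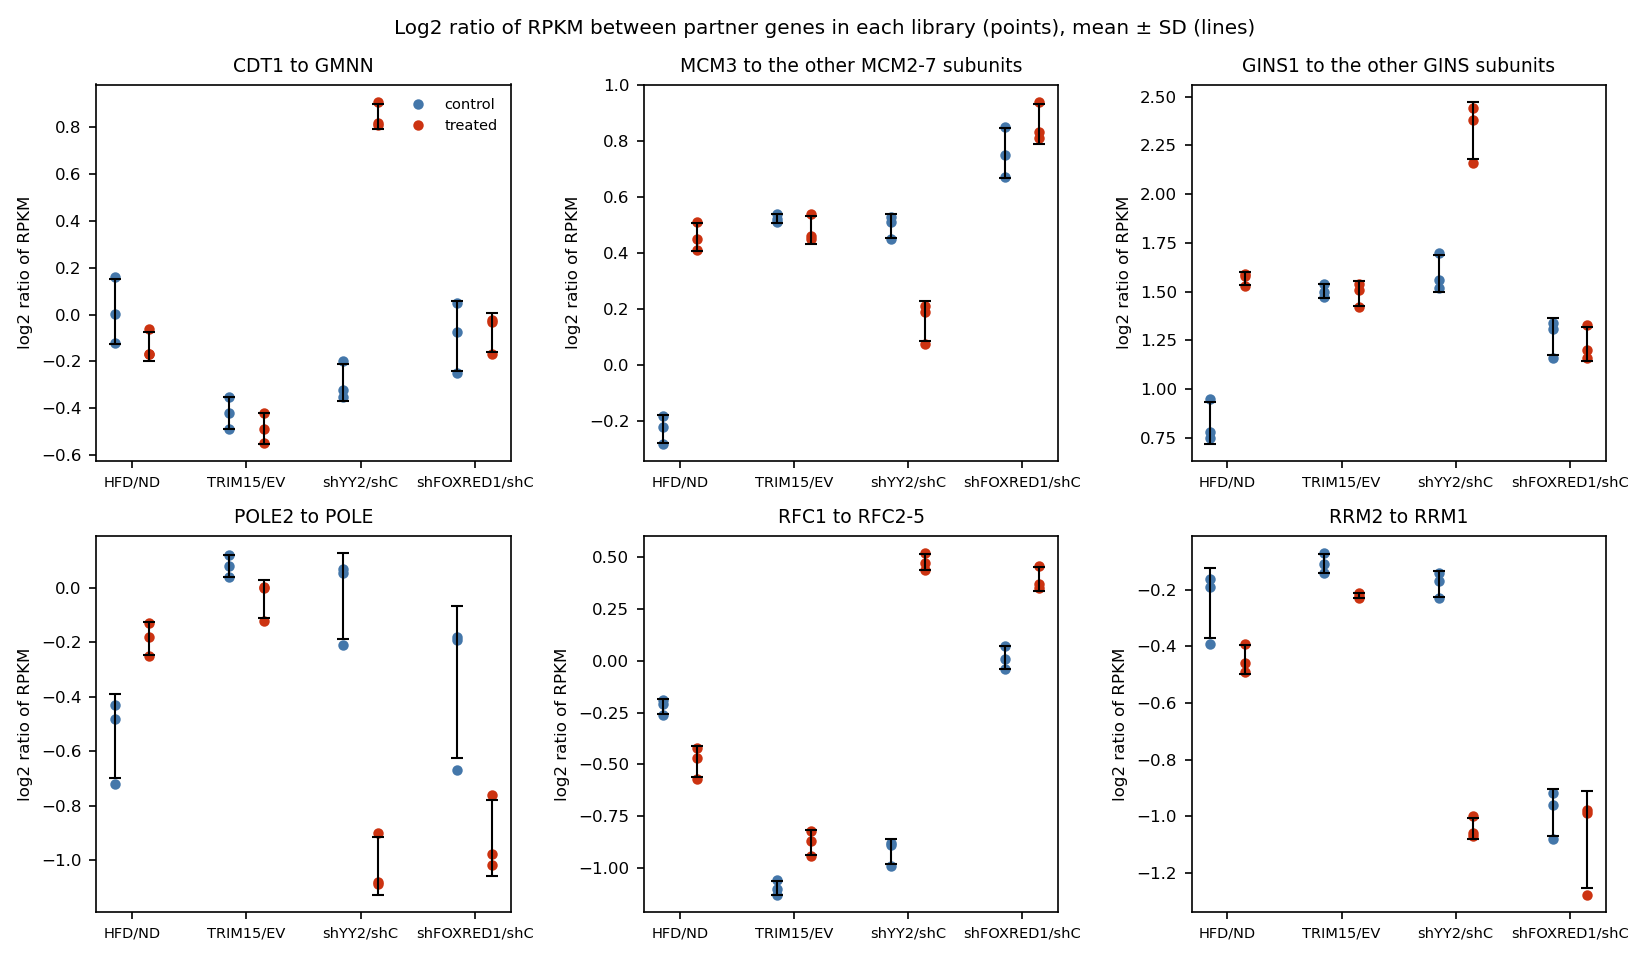
Log2 ratio of RPKM between partner genes (y axis) in each library (points; blue control, red treated) with mean ± SD (black lines), for 6 ratios in 4 experiments (x axis). CDT1 to GMNN stands apart only with shYY2 (0.81 to 0.91, against -0.35 to -0.20 in its controls), and MCM3 to the other ring subunits is lowest in ND tumors (-0.28 to -0.18).

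Across the 4 experiments, 18 of 53 members were called in all, where 6.79% of the 14519 genes tested in all 4 were. Of these, 15 were higher in HFD tumors and lower in the other 3 experiments, a pattern of 0.806% of all genes: CDC6, MCM3 to MCM7, CDC45, POLD1, POLD2, POLE2, PCNA, RFC4, FEN1, RRM2 and TK1. POLE, RPA1 and TIMELESS were lower in all 4, where 0.262% of all genes were. Another 16 were higher in HFD tumors, not called with HA-TRIM15 and lower with both hairpins, where 4.56% of all genes were, among them GINS1, RFC3, DBF4, CDC7 and TYMS. With library totals only, MCM5, MCM6, MCM7, CDC45, POLD1, POLD2, POLE2, PCNA, FEN1 and RRM2 of the 15 were not called in HFD tumors.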

How the data were processed

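The authors deposited raw read counts per gene for 61860 human genes in 4 tables, made from RNA-seq of OE33 xenografts or cultures. The labels name a directional library kit and the study's methods another version, so strandedness was not settled and reads of overlapping genes cannot be told apart. The submitters' processing notes list hg38 and mm10 with no role. The aligner, counter, annotation and handling of mouse reads are not given in the sources used here. The header of the HA-TRIM15 table holds empty cells after sample names, and its 6 names were taken in order for the 6 columns of values.

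Each experiment was fitted alone in edgeR 4.0.16 (R 4.3.3; limma 3.58.1) with filterByExpr (minimum count 10, total 15), TMM scaling and the quasi-likelihood test. P-values were adjusted by Benjamini-Hochberg across every gene in the fit, and those under 0.05 were called. Differences between effects came from 1 fit of all 24 libraries. DESeq2 1.42.0 was an alternative, beside other scalings, filters, fold thresholds, leaving out each library and a replicate block. RPKM used union exon lengths. The scripts were tested on simulated data. No replicate pair differed by less than sampling noise. Promoter windows came from RefSeq (GRCh38.p14).

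The members and lists were chosen with earlier results of these data known. All 54 members are accounted for. Values in every library are given for the called member of largest change in each step and experiment, members called in all 4 experiments or against most called members of their step, MCM2 to MCM7, CDT1, GMNN, RRM2, PCNA and the targeted genes, in full or as fold changes. Of other lists, the counts and the called genes of largest change are named.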

Additional observations from a re-analysis of the deposited data

Results flagged for a closer look

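Effects of the 4 treatments on the replication genes were compared directly in a fit of all 24 libraries, and these differences passed the test (edgeR quasi-likelihood, Benjamini-Hochberg adjusted). The HA-TRIM15 and HFD effects differed for 29 of 53 members, where 28.4% of 17980 genes differed. MCM3 had the largest difference (log2 -1.07) and RFC1 (0.17) the only positive one among the 29. The shYY2 and HA-TRIM15 effects differed for 49 members, where 57.4% of all genes differed, with MCM10 the largest (log2 -3.12). The shFOXRED1 and shYY2 effects differed for 43 members, where 55.5% of all genes differed, with CLSPN the largest (log2 2.29). CDT1 (-0.54) and RFC1 (-0.53) were the 2 of these 43 that fell more with shFOXRED1. Each effect came from its own experiment, so batch and treatment cannot be told apart in these differences.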

How the results depend on the processing

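With library totals only, an alternative chosen after seeing the data, 14 members were higher and 12 lower in HFD tumors (median log2 0.055), the medians were -0.13 with HA-TRIM15, -1.22 with shYY2 and -0.58 with shFOXRED1, and 11 HFD values turned negative (-0.10 to -0.0023). Of these, FEN1 (-0.0023) and MCM7 (-0.015) had been called higher, and CDT1 (-0.094), MCM2 (-0.062), ORC2, ORC3, GINS2, PRIM2, POLD3, POLE3 and RFC2 had not been called. RFC2 was then called lower. With HA-TRIM15, 5 uncalled values turned negative. At a fold of at least 1.2, 13 were higher and 0 lower with HFD and 3 lower with HA-TRIM15. At a fold of at least 2, 0 were higher and 0 lower with HFD, 0 lower with HA-TRIM15 and 2 lower with shFOXRED1. With no count filter, 3 were lower with HFD and the HA-TRIM15 median was -0.11. The shYY2 median was -1.22 with DESeq2 size factors or its Wald test and -1.21 with at least 10 counts in every library. The cause was not tested for these.

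Leaving out 1 library at a time gave 25 to 29 members higher and 3 to 6 lower with HFD (median 0.14 to 0.17), 14 to 24 lower and 0 to 1 higher with HA-TRIM15 (median -0.11 to -0.085) and a shYY2 median of -1.27 to -1.22. HFD members lower were 3 without HFD replicate 3 or ND replicate 3. CDT1, not called with HFD, ranged from -0.027 without ND replicate 1 to 0.076 without ND replicate 2.

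Replicate numbers were checked for pairing by the correlation of same-numbered libraries' deviations. Over all genes tested none of the 12 pairs passed 0.1. Over genes of at least 10 CPM 7 of 12 did: all 3 of shFOXRED1 (0.211, 0.125 and 0.410), 2 of shYY2 (0.136 and 0.206), 1 of HFD (0.123) and 1 of HA-TRIM15 (0.109). Over these genes, 4 of 6 libraries correlated best with their own number in the shFOXRED1 and in the shYY2 experiment. With HFD and with HA-TRIM15, 2 of 6 did. The replicate block gave 31 higher and 5 lower with HFD (median 0.16), 1 higher and 23 lower with HA-TRIM15 (-0.10), 51 lower with shYY2 (-1.23), 51 lower with shFOXRED1 (-0.64), and 31, 50 and 44 members differing between effects. It changed the calls of ORC5 with shFOXRED1 (gained) and of RFC1 (gained) and RPA1 (lost) with HA-TRIM15. Low counts limit RNASEH2A, which could not be tested.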
